A study of Danio rerio with 12 samples.

Results

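The comparison described here sets late subjective night against late subjective day in the zebrafish pineal gland kept in constant darkness. Its members were chosen by their labelled circadian time alone. Late night was the 4 arrays labelled CT18 and CT22, late day was the 4 arrays labelled CT6 and CT10, and these 8 of the 12 arrays of the series each held total RNA from a separate pool of 12 glands. Circadian time (CT) is counted in hours, and CT18 and CT22 fall in the hours that were dark during rearing, whereas CT6 and CT10 fall in the hours that were lit. Pools were collected every 4 h over 48 h, so each time was sampled in the first and in the second daily cycle, and replicates 1 and 2 of a time are its arrays of the first and the second cycle.

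All groups shared 1 genotype, Tg(aanat2:EGFP)Y8, a transgenic line in which enhanced green fluorescent protein is driven by regulatory regions of aanat2 and lights up the pineal gland for dissection. The fish were adults of 0.5 to 1.5 years, males and females mixed, raised in cycles of 12 h light and 12 h dark and then held in darkness for sampling. No treatment separated late night from late day, and no other genotype was measured. The RNA came from whole glands, so fewer cells of a type and less RNA per cell cannot be told apart. The labels call the arrays separate samples and say no more about the independence of the fish, so the p-values measure the spread between arrays, which includes that between CT18 and CT22, between CT6 and CT10 and between cycles.

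The zebrafish pineal gland is a photoreceptive organ with its own circadian clock, and it releases melatonin at night. In the clock loop of vertebrates, Clock and Bmal proteins pair up and switch on genes with E-box elements, among them those of their own repressors, the Per and Cry proteins. Accessory loops run through the nuclear receptors of the Rev-erb and Ror families, which act on the same DNA element in opposite directions, and through the activators Dbp and Tef and the repressor Nfil3, which share the D-box.

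Values are intensities of Affymetrix probe sets after quantile normalization over the 12 arrays. A difference is the mean log2 intensity of late night minus that of late day, with its standard error (SE), and a gene is said to have risen or fallen where limma, fitted over all 11625 probe sets that passed a filter on dim signals, gave an adjusted p (Benjamini-Hochberg) under 0.05. Levels of different probe sets are not compared, since their brightness depends on the probes.

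The array of CT6 in the second cycle stood apart from the rest. Its mean correlation with the other 11 arrays was 0.814, against 0.865 to 0.907 for the others. Skin markers, keratins among them, lay on average 2.24 log2 units above their 12-array mean on it, whereas the late night arrays lay at -1.36 to 1.26 and the remaining late day arrays at -0.75 to 0.20. The summed intensity of the 33 skin markers on the array, of which 32 were tested, was 3126 to 23020 on the late night arrays and 4631 to 47800 on the late day arrays, the highest being that array. Bone and connective tissue markers stood 1.56 log2 units above their mean on it and immune cell markers 1.05, while pineal photoreceptor markers stood at -0.71, against -0.20 to 0.20 on the late night arrays and 0.14 to 0.20 on the other late day arrays. The defining pineal markers aanat2, exorh and tph2 read at least 388, 695 and 2624 on the 8 arrays. Of the 10 marker lists, the only call in the fit over 8 arrays was opn1lw1 among the pineal photoreceptor markers. The counts over all probe sets are therefore given with and without CT6 of the second cycle. Single genes and lists are given over 8 arrays, and only some of them without that array as well. The part of these other tissues in any result was not tested. Intensities of the spiked hybridization controls were higher on CT22, CT6 and CT10 of the second cycle (837 to 1314) than on the other 5 of the 8 arrays, which lay between 575 and 697.

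**Figure D1:**
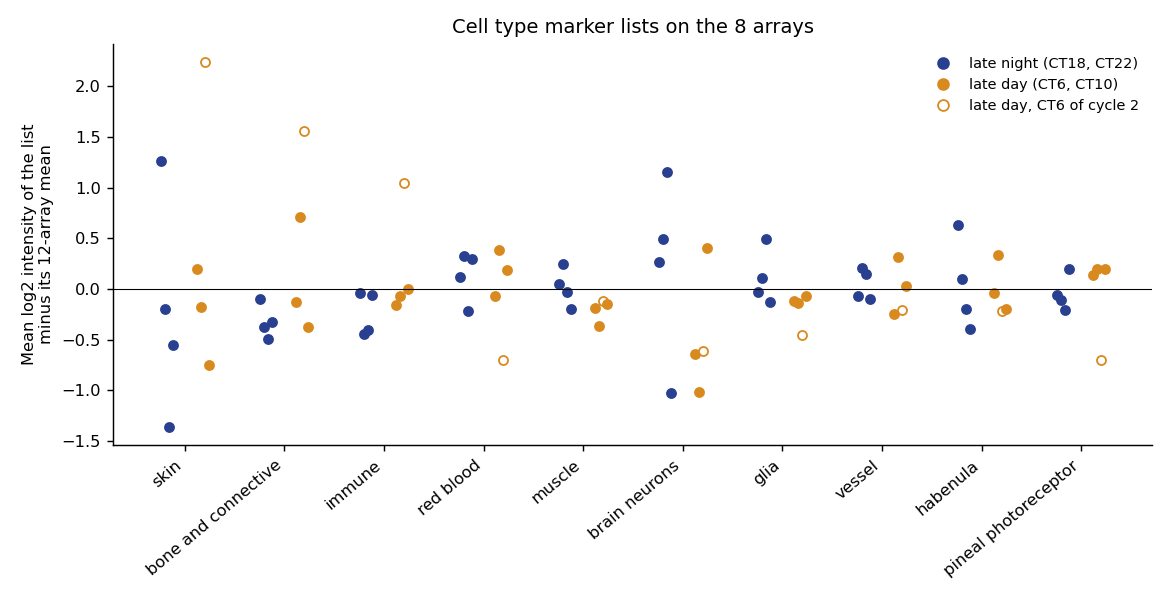
Cell type marker lists on the 8 arrays: each point is the mean log2 intensity of a list on 1 array minus its mean over 12 arrays, late night (CT18, CT22) left and late day (CT6, CT10) right. The open point is CT6 of the second cycle, which lies at 2.24 for skin, 1.56 for bone and connective tissue and 1.05 for immune cells, above the other 7 arrays in each.

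Over 8 arrays, 11 probe sets rose in late night (0.0946% of the 11625 tested) and 8 fell (0.0688%). The groups did not overlap for 306 probe sets that were higher in late night (2.63%) and for 226 that were lower (1.94%). An unadjusted p under 0.05 was reached by 770 probe sets (6.62%), and the median log2 difference of all tested was -0.0013. Of all tested, 0.163% were called in either direction and 49.7% lay above 0. The counts of the lists below stand against these shares. The probe sets that rose differed 2.87- to 17.8-fold with a median of 4.52-fold, and those that fell differed 2.25- to 20.8-fold with a median of 4.34-fold. Of these, 10 that rose and 5 that fell carried a gene name. All 19 moved the same way in each daily cycle and their groups did not overlap, a property that goes with passing the test. Leaving out any 1 of the 7 arrays other than CT6 of the second cycle left 3 or 4 probe sets that fell. Within the first cycle, 2 arrays against 2, limma called 35 that rose and 12 that fell, and within the second it called 0 and 0, with 497 probe sets at an unadjusted p under 0.05. Of the 11 and 8 called over 8 arrays, only 5 and 4 were among those called within the first cycle. Without CT6 of the second cycle, 19 probe sets rose (0.163%) and 29 fell (0.249%), and the 19 called over 8 arrays were all among these 48. Over these 7 arrays an unadjusted p under 0.05 was reached by 943 probe sets (8.11%), and the groups did not overlap for 476 that were higher in late night (4.09%) and 609 that were lower (5.24%).

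**Figure D2:**
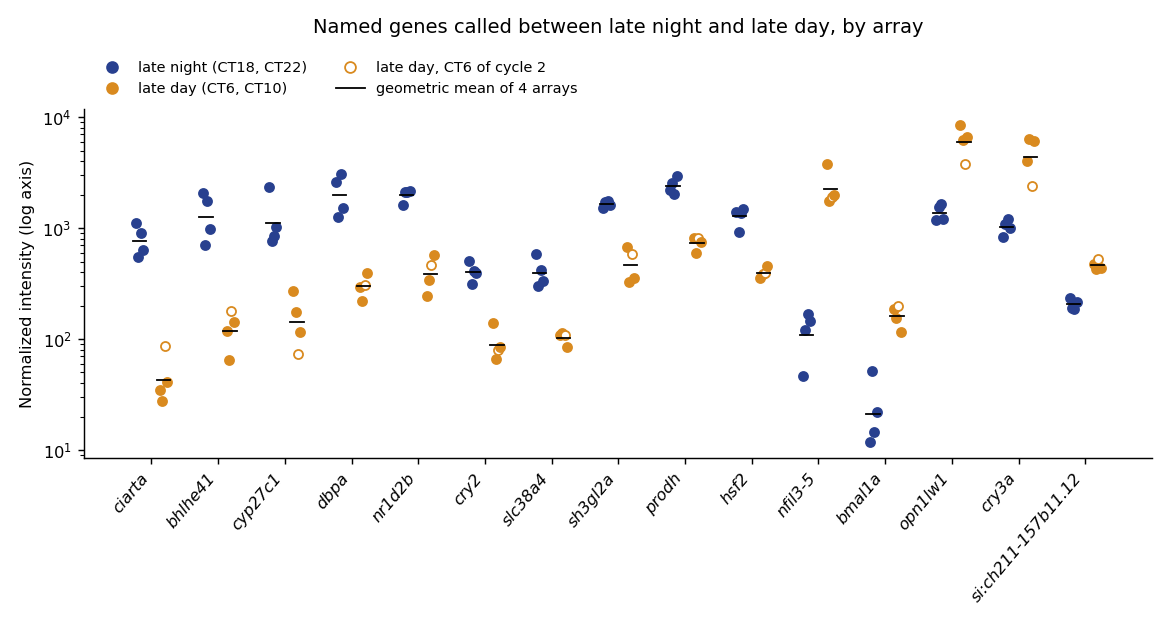
Normalized intensity (log axis) of the 15 named genes that passed the test over 8 arrays, with late night (CT18, CT22) to the left of late day (CT6, CT10) for each gene and a bar at the geometric mean of 4 arrays. For every gene the 4 late night points lie wholly above or wholly below the 4 late day points, and the open points show CT6 of the second cycle.

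Clock and accessory loop genes held the widest differences among the genes with a name. Among the 7 tested genes of the repressor list, counted by 1 probe set a gene, 1 rose, 1 fell and the median difference was 0.43. ciarta, the repressor of Clock-Bmal activity also known as Chrono, read 1106 and 550 at CT18 and CT22 of the first cycle and 898 and 637 at those times of the second, against 34.98 and 27.5 at CT6 and CT10 of the first cycle and 86.8 and 41.3 of the second. Its lowest late night array was thus far above its highest late day array. The difference was 17.8-fold (log2 4.16, SE 0.36, adjusted p from limma 0.0024), and it was 22.5-fold without CT6 of the second cycle.

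The cryptochromes held calls in each direction. cry3a, named cry2a in the study, was the member that fell: it read 837, 1091, 1207 and 998 on the late night arrays (CT18 and CT22 of the first cycle, then of the second), against 4045, 6371, 2409 and 6134 on the late day arrays (CT6 and CT10 in the same order, which holds below as well). It was 4.31-fold lower in late night (log2 -2.11, SE 0.29, adjusted p from limma 0.0199). This call was lost without any one of the 7 arrays other than CT6 of the second cycle, with adjusted p from limma of 0.0573 to 0.0831, and was stronger without that array (log2 -2.40, adjusted p from limma 0.000813).

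cry2, the study's cry3, has probe sets that differed in call. The one that rose read 505, 316, 412 and 391 in late night, against 138, 66.3, 79.7 and 84.3 in late day, a 4.52-fold difference (log2 2.18, SE 0.26, adjusted p from limma 0.00594). The other read 474, 277, 496 and 303 in late night, against 196, 125, 217 and 210 in late day, and it did not pass the test although its groups did not overlap either (log2 1.03, SE 0.27, adjusted p from limma 0.305). cry1a differed by -0.09 (SE 0.32), cry1b by 0.73 (SE 0.37) and cry4 by -0.86 (SE 0.49) on the log2 scale, none of them past the test. The light-inducible per2 read 490, 698, 311 and 764 in late night, against 629, 331, 370 and 322 in late day, with overlapping groups (log2 0.43, SE 0.32, adjusted p from limma 0.837). A further probe set of per2 differed by -0.30 (adjusted p from limma 0.946). per3 and cry3b stayed below the filter on dim signals.

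On the activating side, 1 of 6 genes fell and none rose, with a median difference of -1.10. bmal1a, which encodes a partner of Clock, read 11.7, 51.0, 14.6 and 22.1 in late night, against 185, 156, 200 and 117 in late day. Every late night array was below every late day array, by 7.69-fold on average (log2 -2.94, SE 0.44, adjusted p from limma 0.0298), but the late night values were low, and how much of such a reading is background cannot be told for 1 probe set. The call was lost without any one of 6 arrays, CT22 of the first cycle and CT6 of the second being the exceptions, at adjusted p from limma of 0.0735 to 0.137, and with the level of the hybridization controls as a block (0.0767). Without CT6 of the second cycle bmal1a differed by -2.84, just past the test (adjusted p from limma 0.0499). Its paralogue bmal1b read 25.8, 31.6, 48.0 and 44.8 in late night, against 94.2 ± 20.3 (mean and SD, n = 4) in late day, where the lowest array read 76.6, and did not pass (log2 -1.35, SE 0.31, adjusted p from limma 0.212). bmal2 differed by -1.41 (SE 0.69), clocka by -0.84 (SE 0.54), clockb by 0.17 (SE 0.35) and npas2, a relative of Clock, by 0.32 (SE 0.36), with groups that overlapped in each.

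The accessory loops held 3 genes that rose and 1 that fell among 11 tested, with a median of 0.98. nr1d2b, a Rev-erb repressor, was the most even of them in late night. It read 1609, 2128, 2104 and 2145 in late night, against 244, 338, 470 and 569 in late day, a 5.14-fold difference (log2 2.36, SE 0.26, adjusted p from limma 0.00536). A further probe set of nr1d2b differed by only 0.21 on the log2 scale, and nr1d2a by 0.34; neither passed. rorcb, of the Ror activators that act on the Rev-erb element, read 43.5, 39.2, 14.1 and 36.1 in late night, against 524, 142, 172 and 186 in late day. The groups were apart by 7.23-fold on average (log2 -2.85, SE 0.47), just short of the threshold over 8 arrays (adjusted p from limma 0.0551) and just past it without CT6 of the second cycle (0.0487), a call that was lost again without any 1 of the other 7 arrays. rorab differed by -0.06.

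Among the D-box regulators 1 fell and 1 rose. nfil3-5, of the Nfil3 repressor family, had the greatest decrease of all named genes. It read 46.1, 120, 169 and 145 in late night, against 3808, 1748, 1911 and 1986 in late day, so it was 20.8-fold lower in late night (log2 -4.38, SE 0.40, adjusted p from limma 0.0024). dbpa, a Dbp activator, read 2630, 1272, 3067 and 1533 in late night, against 295, 220, 310 and 392.2 in late day, and rose 6.68-fold (log2 2.74, SE 0.30, adjusted p from limma 0.00536). At CT18 it was higher than at CT22 in each cycle. The related activator tefa read 1331, 827, 1260 and 1419 in late night, against 418, 488, 985 and 639 in late day, groups that overlapped only through CT6 of the second cycle (log2 0.98, SE 0.28, adjusted p from limma 0.397, and log2 1.22, adjusted p from limma 0.0574 without that array). nfil3-6 differed by 1.08 (SE 0.36), the opposite sign to nfil3-5, without passing, and tefb by 0.08.

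The helix-loop-helix repressors bhlhe41 and bhlhe40, which bind E-boxes, both averaged higher in late night, and bhlhe41 passed the test over 8 arrays. bhlhe41 read 2092, 700, 1752 and 976 in late night, against 118, 64.7, 178 and 143 in late day (10.7-fold, log2 3.41, SE 0.39, adjusted p from limma 0.00536). Like dbpa and ciarta, it was higher at CT18 than at CT22 in each cycle. bhlhe40 read 4434, 3008, 3189 and 3599 in late night, against 1312, 124, 2253 and 226 in late day. Its late day values split by time, with CT6 high and CT10 low in each cycle. It did not pass although the groups did not overlap (log2 2.71, SE 0.77, adjusted p from limma 0.396). Without CT6 of the second cycle bhlhe40 differed by 3.40, just short of the threshold (adjusted p from limma 0.0574).

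Among 20 tested genes for enzymes and partners that modify clock proteins, none was called over 8 arrays and the median difference was 0.06. csnk1db, a casein kinase that phosphorylates Per proteins in mammals, read 2242, 2398, 1979 and 2636 in late night, against 1443, 1107, 1392 and 1462 in late day, with no overlap (log2 0.78, SE 0.17, adjusted p from limma 0.169). fbxl3a, whose mammalian counterpart marks cryptochromes for breakdown, read 751, 722, 1139 and 995 in late night, against 1878, 1944, 1629 and 1768 in late day. It lay just outside the threshold over 8 arrays (log2 -1.02, SE 0.19, adjusted p from limma 0.0898) and just inside it without CT6 of the second cycle (0.0496), where the call was lost without any 1 of 6 further arrays at adjusted p from limma of up to 0.244.

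**Figure D3:**
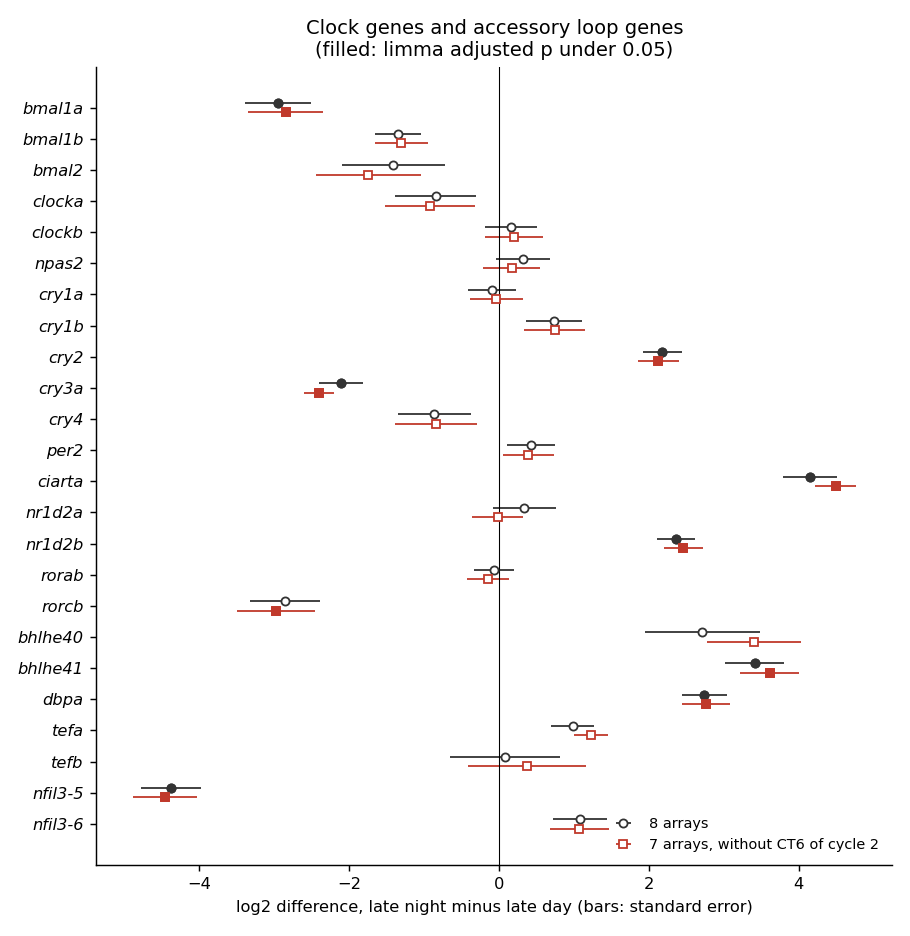
Difference in log2 intensity, late night minus late day, for clock genes and accessory loop genes, with the standard error as a bar. Dark circles are the fit over 8 arrays and red squares that without CT6 of the second cycle, and filled symbols passed an adjusted p from limma of 0.05; nfil3-5 lies furthest left at -4.38 and ciarta furthest right at 4.16.

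In the light-sensing machinery, the outstanding gene was the red cone opsin opn1lw1. It read 1183, 1550, 1634 and 1207 in late night, against 8542, 6193, 3781 and 6608 in late day. The lowest late day array was CT6 of the second cycle. The pineal photoreceptor markers, a list that includes opn1lw1, were also lowest on that array, and a link between the 2 was not tested. The gene was 4.37-fold lower in late night (log2 -2.13, SE 0.25, adjusted p from limma 0.00536) and 5.11-fold lower without that array (log2 -2.35, SE 0.18, adjusted p from limma 0.000748). It was the only one of 9 tested opsin genes that was called, and the list had a median of -0.30. exorh, an opsin of the pineal gland, read 851, 830, 695 and 2203 in late night, against 1167, 1309, 1393 and 1326 in late day (log2 -0.35, SE 0.32, adjusted p from limma 0.867). Late night was lower on 3 of its 4 arrays, while CT22 of the second cycle was above all late day arrays. The blue cone opsin opn1sw2 differed by -0.74 (SE 0.25), the ultraviolet opsin opn1sw1 by 0.63 (SE 0.34) and the green opsin opn1mw2 by -0.29 (SE 0.36), none past the test.

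Of 28 tested genes of phototransduction and the outer segment, none was called with or without CT6 of the second cycle. The median was -0.01 over 8 arrays and -0.20 over 7, and it was -0.50 in the first cycle and 0.33 in the second. An unadjusted p from limma under 0.05 was reached by 8 of the 28 over 8 arrays and by 12 over 7. Over all probe sets tested these shares were 6.62% and 8.11%. Over 7 arrays the groups did not overlap for 9 that were lower in late night and 1 that was higher, against 5.24% and 4.09% of all. The cone transducin subunit gngt2a read 479, 348, 465 and 620 in late night, against 919, 923, 582 and 1065 in late day. The groups overlapped through CT22 and CT6 of the second cycle (log2 -0.86, SE 0.24, adjusted p from limma 0.381, and log2 -1.05, adjusted p from limma 0.0721 without CT6 of the second cycle). gngt2b, its paralogue, read 82.4, 65.8, 66.1 and 65.5 in late night, against 296, 120, 82.2 and 129 in late day (log2 -1.0, SE 0.35, adjusted p from limma 0.569). pde6c, the catalytic subunit of the cone phosphodiesterase, leaned the other way, with 7628, 8071, 6371 and 9053 in late night, against 6714, 6134, 2843 and 5195 in late day (log2 0.64, SE 0.26, adjusted p from limma 0.679). The transducin subunit gnb1a has probe sets that differ in call. The one with values of 1205, 1271, 1212 and 1708 in late night, against 2318, 2068, 1503 and 1970 in late day, did not pass (log2 -0.54, SE 0.19, adjusted p from limma 0.577). A probe set singled out after its values were seen read 880, 811, 730 and 736 in late night, against 2277, 2314, 523 and 1501 in late day, and was called without CT6 of the second cycle (log2 -1.34, SE 0.19, adjusted p from limma 0.0149, lost again without CT6 or CT10 of the first cycle).

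Retinoid genes were led by cyp27c1, which in zebrafish converts vitamin A1 to vitamin A2. It read 2337, 770, 854 and 1016 in late night, against 270, 175, 73.1 and 115 in late day. No late night array came near the late day range (7.92-fold, log2 2.99, SE 0.44, adjusted p from limma 0.0257), but the call was lost without any one of 6 arrays, CT6 of either cycle being the exceptions, at adjusted p from limma of 0.0544 to 0.11, and with the level of the hybridization controls as a block (0.0507). It was the 1 call among 25 tested retinoid genes over 8 arrays, where 16 lay above 0 and the median was 0.24. Of all probe sets tested, 0.163% were called and 49.7% lay above 0.

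rpe65a, the isomerase of the visual cycle, read 7979, 5051, 7359 and 4521 in late night, against 2346, 2077, 698 and 2448 in late day. CT6 of the second cycle was the lowest array by far, and over 8 arrays the gene did not pass (3.56-fold, log2 1.83, SE 0.38, adjusted p from limma 0.143). Without that array it rose 2.65-fold (log2 1.41, SE 0.21, adjusted p from limma 0.0266), a call lost without any 1 of 5 further arrays at adjusted p from limma of 0.0551 to 0.193. A further probe set of rpe65a differed by 1.28 (adjusted p from limma 0.259) over 8 arrays. The carotenoid-cleaving bco2a read 154, 132, 77.0 and 73.6 in late night, against 38.9, 40.4, 58.2 and 37.4 in late day (log2 1.27, SE 0.32, adjusted p from limma 0.289). dhrs9, a retinol dehydrogenase, read 204, 184, 163 and 247 in late night, against 148, 83.9, 95.3 and 60.9 in late day (log2 1.1, SE 0.28, adjusted p from limma 0.305). In both genes every late night array lay above every late day array, and neither passed.

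Factors that define photoreceptor fate were not called, with 26 tested and a median of 0.22. nr2e3, a nuclear receptor of photoreceptors, had the clearest separation, at 2624, 1850, 2897 and 2033 in late night, against 1500, 1128, 484 and 1041 in late day (log2 1.27, SE 0.32, adjusted p from limma 0.289). Without CT6 of the second cycle, its lowest array, the difference was 0.94 (adjusted p from limma 0.124).

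None of the 9 tested genes of melatonin and serotonin synthesis was called. aanat2, the enzyme that sets the rhythm of melatonin production, read 1919, 388, 1935 and 1663 in late night, against 612, 2001, 539 and 1293 in late day. CT18 was above CT6 in each cycle, whereas CT22 of the first cycle had the lowest value of all 8 arrays and CT10 of the first cycle the highest, so the groups overlapped widely (1.29-fold, log2 0.37, SE 0.56, adjusted p from limma 0.923). The study identified aanat2 as circadian by these arrays and by RNA sequencing. CT2 and CT14 are outside this comparison, so a gene that is not called here may still be rhythmic. The tryptophan hydroxylase tph2 read 5510, 5873, 4286 and 6010 in late night, against 5610, 5082, 2624 and 5342 in late day (log2 0.27, SE 0.25, adjusted p from limma 0.871). tph1a differed by 0.29 (SE 0.50) over 8 arrays and by -0.28 (SE 0.28) without CT6 of the second cycle, and the list median went to the other side of 0 as well, 0.27 over 8 arrays and -0.06 over 7.

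Heat shock and chaperone genes held 1 call among 45 tested, with 32 above 0 and a median of 0.20. Of all probe sets tested, 0.163% were called and 49.7% lay above 0. The call was hsf2, a heat shock transcription factor, which read 1412, 925, 1369 and 1482 in late night, against 357, 390, 391.9 and 453 in late day (3.22-fold, log2 1.69, SE 0.19, adjusted p from limma 0.00536). Its late day arrays were close to each other, and its lowest late night array was CT22 of the first cycle. hspa4l, an Hsp110 type partner of Hsp70, read 2886, 2462, 2486 and 2960 in late night, against 1320, 843, 315 and 882 in late day. It rose without CT6 of the second cycle, its lowest array (2.71-fold, log2 1.44, SE 0.19, adjusted p from limma 0.00928), where it was lost without CT10 of either cycle; over 8 arrays the adjusted p from limma was 0.115 at log2 1.85. The Hsp70 gene hspa8b read 193, 272, 152 and 242 in late night, against 74.8, 56.4, 87.8 and 102 in late day (log2 1.42, SE 0.26, adjusted p from limma 0.0907). The cytosolic chaperonin, with 13 genes and a median of -0.06, and the unfolded protein response, with 33 genes and a median of -0.02, held no call. In the unfolded protein response 14 of 33 genes lay above 0 over 8 arrays. Without CT6 of the second cycle 22 of 33 did, with a median of 0.06.

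**Figure D4:**
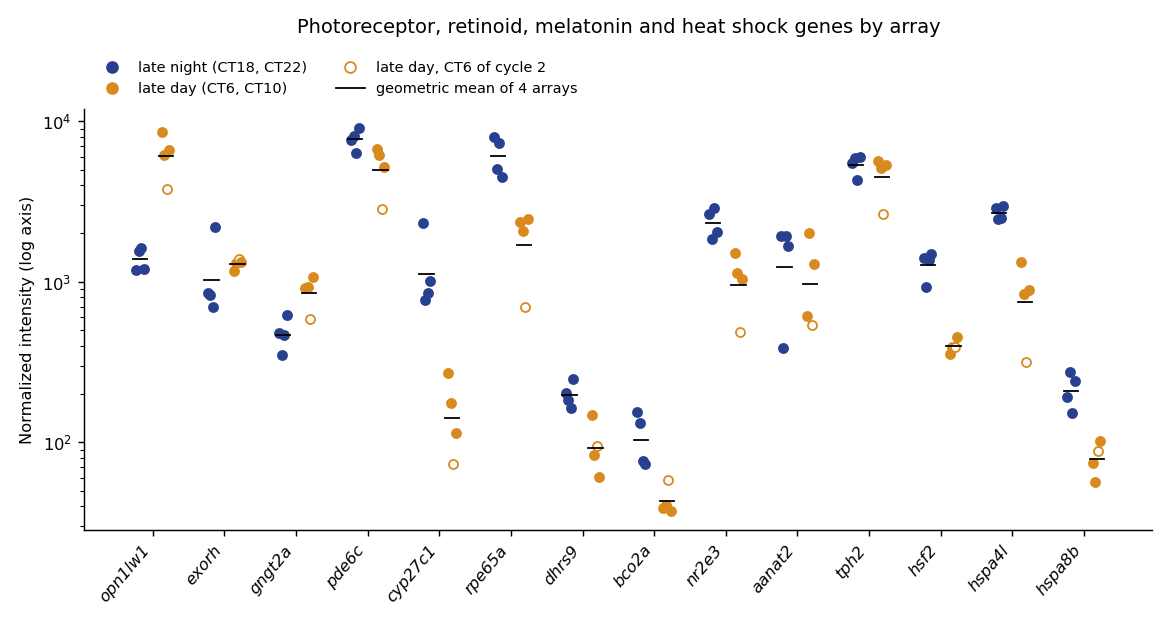
Normalized intensity (log axis) by array of photoreceptor, retinoid, melatonin and heat shock genes, late night (CT18, CT22) left of late day (CT6, CT10), with a bar at the geometric mean of 4 arrays and CT6 of the second cycle as the open point. opn1lw1 reads 1183 to 1634 in late night, below its late day range of 3781 to 8542, whereas the late night points of aanat2 spread over 388 to 1935 and cover most of the late day range.

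Single genes of amino acid metabolism and transport were also called. prodh, named through the study's list and encoding the enzyme that starts proline breakdown in mitochondria, read 2207, 2554, 2033 and 2969 in late night, against 807, 603, 808 and 751 in late day (3.28-fold, log2 1.71, SE 0.18, adjusted p from limma 0.00536). slc38a4, a transporter of small neutral amino acids, read 587, 303, 418 and 336 in late night, against 109, 114, 108 and 84.4 in late day (3.85-fold, log2 1.95, SE 0.24, adjusted p from limma 0.00729). It was the 1 call among 107 tested solute carriers (0.163% of all probe sets), of which 53 lay above 0 (49.7% of all) with a median of -0.02. slc25a33, a mitochondrial carrier of pyrimidine nucleotides, read 1507, 922, 931 and 1260 in late night, against 579, 632, 651 and 324 in late day, and did not pass (log2 1.1, SE 0.26, adjusted p from limma 0.254). arg2, the mitochondrial arginase, read 374, 202, 172 and 344 in late night, against 66.4, 73.2, 100 and 79.6 in late day. It lay just outside the threshold over 8 arrays (log2 1.71, SE 0.29, adjusted p from limma 0.0577) and inside it without CT6 of the second cycle (log2 1.83, adjusted p from limma 0.0363), where the call was lost without any 1 of 6 further arrays.

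Glycolysis had no call among 40 tested genes and a median of 0.05. Its members with the lowest p included pfkfb4b, which sets the level of a key activator of glycolysis and read 1944, 1986, 916 and 2011 in late night, against 529, 1143, 516 and 764 in late day (log2 1.22, SE 0.32, adjusted p from limma 0.329). ldha, a lactate dehydrogenase, read 309, 488, 276 and 275 in late night, against 246, 218, 235 and 153 in late day (log2 0.64, SE 0.25, adjusted p from limma 0.623). Both were higher on most or all late night arrays without passing. The citric acid cycle, with 20 genes and a median of 0.04, held no call, nor did oxidative phosphorylation, in which 52 of 71 genes lay above 0 over 8 arrays but 38 of 71 over 7 arrays, with medians of 0.09 and 0.02. Of all probe sets tested, 49.7% lay above 0 over 8 arrays and 48.2% over 7.

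Among genes of vesicle and synaptic release, 1 of 44 rose (0.0946% of all probe sets), 33 lay above 0 (49.7% of all) and the median was 0.16. Without CT6 of the second cycle 27 of 44 lay above 0 (48.2% of all) with a median of 0.09. The gene that rose was sh3gl2a, an endophilin of vesicle recycling, which read 1530, 1718, 1768 and 1632 in late night, against 671, 326, 588 and 356 in late day (3.59-fold, log2 1.84, SE 0.24, adjusted p from limma 0.0135). Its late night arrays differed little from each other. The call was lost without CT18 or CT22 of either cycle or CT10 of the second, at adjusted p from limma of 0.0538 to 0.0759. rims2a, a scaffold of the release site, read 1105, 692, 1189 and 462 in late night, against 415, 318, 306 and 375 in late day (log2 1.2, SE 0.29, adjusted p from limma 0.264). Markers of brain neurons moved beside these genes: 10 of the 12 tested lay above 0, the list median was 0.43, and its level stood at 0.26, 0.50, 1.16 and -1.03 on the late night arrays, against -0.65, -1.02, -0.61 and 0.41 on the late day arrays. snap25a, a member of each list, read 2562, 2531, 4400 and 652 in late night, against 437, 398, 1492 and 1741 in late day. The median of the neuron list was 0.87 in the first cycle and 0.08 in the second. At CT22 of the second cycle, where the neuron markers stood at -1.03, sh3gl2a read 1632 and rims2a 462. At CT10 of the first cycle, where they stood at -1.02, sh3gl2a read 326 and rims2a 318. The part of neurons in the vesicle genes was not tested.

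The large groups of growth and protein making held no call in either fit. Cytosolic ribosomal proteins lay above 0 in 6 of 70 genes with a median of -0.22, but the median was -0.01 in the first cycle and -0.43 in the second, and without CT6 of the second cycle 22 of 70 lay above 0 with a median of -0.10. Mitochondrial ribosomal proteins lay above 0 in 41 of 57 genes with a median of 0.12 in either fit. Ribosome biogenesis genes lay above 0 in 65 of 88 with a median of 0.14, against 49.7% of all probe sets tested. Translation factors lay above 0 in 23 of 67 with a median of -0.09. Proteasome subunits had 50 genes and a median of -0.03, chromatin modifiers 100 genes and -0.04, and splicing and RNA-binding proteins 147 genes and -0.01. hdac9b, a histone deacetylase, read 388, 442, 394 and 470 in late night, against 800, 671, 671 and 925 in late day, with no overlap (log2 -0.85, SE 0.18, adjusted p from limma 0.143). A further probe set of hdac9b differed by -0.39 (adjusted p from limma 0.849). cul1b, a scaffold of ubiquitin ligases, read 262, 269, 277 and 154 in late night, against 512, 518, 411 and 427 in late day (log2 -0.99, SE 0.23, adjusted p from limma 0.212). Of the immediate early genes, 35 of 50 lay above 0 with a median of 0.31, at 0.49 in the first cycle and -0.11 in the second. The level of the list was 0.83, 0.05, 0.01 and -0.03 on the late night arrays, against -0.37, 0.09, 0.17 and -0.19 on the late day arrays. Only CT18 of the first cycle lay above the late day range. egr1, one of them, read 336, 110, 160 and 90.6 in late night, against 26.3, 61.5, 74.7 and 85.7 in late day, and did not pass (log2 1.42, SE 0.47, adjusted p from limma 0.527). A further probe set of egr1 differed by 0.41 (adjusted p from limma 0.867). klf9, a transcription factor also placed there, read 1241, 889, 950 and 657 in late night, against 167, 710, 140 and 507 in late day, where CT6 was low and CT10 high in each cycle (log2 1.59, SE 0.48, adjusted p from limma 0.458). In all, 11 of 38 lists held a call over 8 arrays and 20 of 38 medians lay above 0. The lists with a call include those taken from the study, of which the shorter was chosen on these arrays. Lists also share members, and cyp27c1 was the call of both the retinoid and the cytochrome P450 list. The 11 are therefore not separate gene groups.

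**Figure D5:**
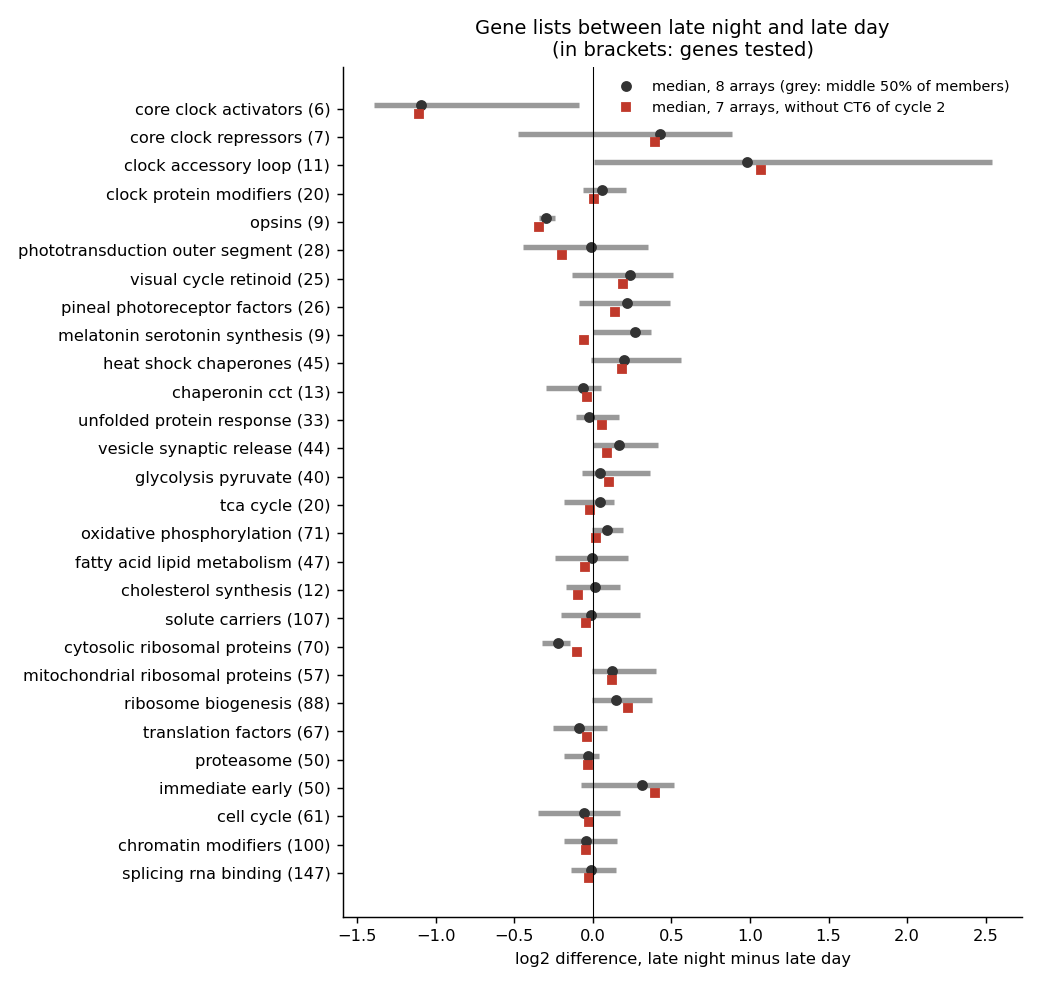
Median log2 difference, late night minus late day, of 28 gene lists, with the genes tested in brackets; dark circles are the fit over 8 arrays with the middle 50% of members as a grey bar, and red squares the fit without CT6 of the second cycle. The accessory loop lies furthest right at 0.98 and the core activators furthest left at -1.10, while the metabolic and ribosomal lists stay near 0.

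Further genes fell with CT6 of the second cycle left out but not in the fit over 8 arrays. ndrg1b, of a family that responds to low oxygen in mammals, read 73.8, 207, 173 and 193 in late night, against 546, 1214, 226 and 1095 in late day, where CT6 of the second cycle was close to the late night range. It was 5.98-fold lower over 7 arrays (log2 -2.58, SE 0.39, adjusted p from limma 0.0266, against 0.289 over 8 arrays), a call lost without CT10 of either cycle or CT18 of the second. rimkla, which makes the peptide N-acetylaspartylglutamate, read 85.0, 114, 130 and 79.0 in late night, against 295, 278, 169 and 259 in late day (log2 -1.47, SE 0.23, adjusted p from limma 0.0307 over 7 arrays, lost without any 1 of 5 further arrays). Of its 2 further probe sets, chosen after their values were seen, 1 passed over 7 arrays as well (log2 -1.42, adjusted p from limma 0.0333). cdh2, the neural cadherin, read 482, 609, 542 and 449 in late night, against 1039, 1252, 502 and 982 in late day (log2 -1.07, SE 0.17, adjusted p from limma 0.0333 over 7 arrays, lost without any 1 of 5 further arrays), while a further probe set of cdh2 differed by 0.60 over 8 arrays. The study lists cdh2, ndrg1b and rimkla among the genes found rhythmic by these arrays and by RNA sequencing. By quantitative PCR in adult pineal glands, it did not bear out a circadian rhythm of cdh2. Nearly all other genes that it tested were borne out, ndrg1b among them by in situ hybridization in larvae. gadd45ga, a stress gene singled out after its values were seen, read 938, 789, 605 and 594 in late night, against 1428, 1904, 769 and 1671 in late day (log2 -1.21, SE 0.20, adjusted p from limma 0.0399 over 7 arrays, lost without any 1 of 6 further arrays). In each of these 4 genes CT6 of the second cycle was the lowest late day array, which goes with being called only once that array is left out. The part of the skin, bone and immune markers on that array was not tested. The last named gene that fell over 8 arrays, si:ch211-157b11.12, has no described role in the files. It read 236, 192, 187 and 215 in late night, against 475, 425, 528 and 436 in late day (2.25-fold lower, log2 -1.17, SE 0.17, adjusted p from limma 0.0282). Without any 1 of 7 arrays, all but CT6 of the second cycle, it no longer passed, nor with the level of the hybridization controls as a block (adjusted p from limma 0.0638).

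Lists taken from the study were counted in the same way. Of 163 tested genes that it listed as rhythmic by RNA sequencing in other fish, 7 rose and 3 fell. Of these 163, 98 lay above 0 and the median was 0.17. Over all probe sets tested 0.0946% rose, 0.0688% fell, 49.7% lay above 0 and the median was -0.0013. Some members, dbpa and cry3a among them, had a name only through the study's list of probe sets rhythmic on these arrays. The counts are therefore not wholly independent of these arrays. Of the 31 genes matched to its shorter list of those found rhythmic by arrays and sequencing alike, which was chosen on these arrays and is no independent evidence of direction, 5 rose and 3 fell with a median of 0.45. Among the 31, mid1ip1b was matched as a near synonym of mid1ip1l and is not on the study's own list (log2 -0.48, adjusted p from limma 0.779). zgc:152863, a gene of that list whose role the files do not give, read 212, 366, 139 and 353 in late night, against 695, 783, 753 and 490 in late day, with no overlap (log2 -1.43, SE 0.31, adjusted p from limma 0.172). mid1ip1l, of a family that promotes fatty acid synthesis in mammals, read 4155, 2113, 2498 and 2109 in late night, against 1578, 927, 1415 and 870 in late day (log2 1.17, SE 0.28, adjusted p from limma 0.243). These 2 genes were each separated by group without passing the test across all probe sets. tob1b, of a family of growth inhibitors, read 794, 578, 793 and 578 in late night, against 425, 287, 296 and 293 in late day (log2 1.08, SE 0.21, adjusted p from limma 0.109). A further probe set of tob1b, chosen after its values were seen, differed by 1.3 on the log2 scale over 8 arrays (adjusted p from limma 0.0577) and rose without CT6 of the second cycle (log2 1.32, adjusted p from limma 0.0487). camk1gb, a calcium-dependent kinase, read 894, 1944, 583 and 1634 in late night, against 1624, 795, 739 and 988 in late day (log2 0.20, SE 0.38, adjusted p from limma 0.949). Within late night it was higher at CT22 than at CT18 in each cycle. Within late day CT6 was above CT10 in the first cycle and below it in the second. The study reports a peak at CT6 in the pineal gland of larvae, with a similar profile in adults. Why camk1gb did not pass was not tested.

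The same genes were compared by daily cycle. The median size of the log2 difference among the 11 that rose was 2.06 in the first cycle and 2.04 in the second. Among the 8 that fell it was 2.41 and 1.84, against 0.27 and 0.38 over all tested. These probe sets were chosen for their difference over the same arrays, so a large size in each cycle is no separate evidence. A test of the interaction with the cycle in limma called 0 of 11625 probe sets, and 703 (6.05%) had an unadjusted p under 0.05. The remaining times lay in between. At CT2 the mean fell between the late night and late day means for all 11 probe sets that rose and 7 of the 8 that fell, and at CT14 for 10 of 11 and 8 of 8, against 28.6% and 32.5% of all probe sets tested. The median position on the way to late night from late day was 50.7% at CT2 and 42.5% at CT14 for those that rose, and 46.2% at CT2 and 33.3% at CT14 for those that fell. These positions rest on group means that chose the genes, and they are a description of 2 arrays a time.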

How the data were processed

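Total RNA of 12 pools of pineal glands was amplified and hybridized to Affymetrix zebrafish arrays, 1 array a pool. The deposited values are probe set intensities on a linear scale, which the authors made with the tools named in the submitters' processing notes, GCOS and MAS5, with no version given. Such values are scaled by array and carry no log, and the deposited table gives no detection calls, so a dim probe set may be background. The number of arrays limits the precision.

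Here the intensities were taken to log2 and quantile-normalized over 12 arrays, and 115 control probe sets were left out. Probe sets were ranked by their highest value over the 12 arrays, and the lowest 25% were left out, so that 11625 of 15502 stayed in. Late night and late day (4 arrays each) were compared with limma 3.58.1 in R 4.3.3 (lmFit, eBayes with trend) and Benjamini-Hochberg adjustment at 0.05, without and with CT6 of the second cycle left out. The interaction with the daily cycle was fitted on the same arrays. The fit was tested on simulated data with the spread of the real arrays. Over 8 arrays it found 28% of probe sets changed 2-fold and 69% of those changed 4-fold. Over 7 arrays it found 19% and 54%. A gene that did not pass may therefore still differ. Of the 15502 probe sets, 10795 have 1 gene symbol in the platform annotation, 135 several and 4572 none; a further 15 were named through the study's list of rhythmic probe sets (prodh, dbpa, cry3a, hdac9b and camk1gb among them), so their rhythm on these arrays had chosen them. In gene lists a gene counts once, by 1 probe set.

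The text names the genes with the largest differences among those that passed with groups that did not overlap. It also names all clock and accessory loop genes. Of the up to 4 members of each other list with the lowest p it describes only some, and for several lists none. Further named are some genes of the study's list found by arrays and sequencing, and some of the genes called only without CT6 of the second cycle. Of the latter, id2b (log2 -1.49, adjusted p from limma 0.0499 over 7 arrays) was not described. Exceptions are said to be chosen after their values were seen. Members, lists and rules were chosen with earlier results of these data known. Alternatives covered the normalization, the filter, an offset, each array, the cycle as a block, time as a factor, the variance model and the threshold; those starting from 7 arrays were chosen after seeing the data. A planned description of promoter motifs was not run, and no genome positions were used here.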

Additional observations from a re-analysis of the deposited data

Results flagged for a closer look

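Within a group of 4 arrays, the highest or lowest value can stand apart from the other 3. This was tested for 146 groups of the named genes, and 13 stood out; chance alone gives about 1 in 20. In late night the lowest array stood apart for nr1d2b (1609 at CT18 of the first cycle), hsf2 (925 at CT22 of the first cycle), rorcb (14.1 at CT18 of the second cycle), pfkfb4b (916 at CT18 of the second cycle), cul1b (154 at CT22 of the second cycle) and aanat2 (388 at CT22 of the first cycle). In late night the highest array stood apart for gngt2b (82.4 at CT18 of the first cycle) and gnb1a (1708 at CT22 of the second cycle). In late day the lowest array stood apart for tph2 (2624) and rpe65a (699), each on CT6 of the second cycle, and for slc25a33 (324 at CT10 of the second cycle). In late day the highest array stood apart for nfil3-5 (3808) and tob1b (425), each on CT6 of the first cycle. Leaving out CT6 of the second cycle brought rpe65a past the test (adjusted p from limma 0.0266) and left tph2 short of it.

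clocka and tefb moved in opposite directions in the daily cycles. The difference of clocka in the second cycle less that in the first was 2.27 on the log2 scale, and that of tefb was -2.31. The interaction with the cycle did not pass for either (adjusted p from limma 0.77 each), and neither gene was called in the comparison.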

How the results depend on the processing

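The counts of late night against late day were 11 higher and 8 lower. A false discovery rate of 0.10 gave 20 higher and 13 lower, time as a factor over all 12 arrays 30 and 20, array weights 60 and 45, CT22 against CT10 4 and 1, CT18 against CT6 5 and 2, and the second cycle only 0 and 0 (CT6 of that cycle being 1 of its 4 arrays). The first cycle only gave 35 higher, and the variance without trend gave 4 lower. With the hybridization control level as a block 5 were lower, and cyp27c1, bmal1a and si:ch211-157b11.12 were lost. Leaving out 1 array gave 8 to 19 higher and 3 to 29 lower, 29 without CT6 of the second cycle and 3 or 4 without any other array.

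Replicate numbers are daily cycles, and of 8 same-cycle pairs of arrays 1 had deviations correlated above 0.1 (r from -0.226 to 0.186), so they were not taken as pairs. The replicate block gave 11 higher and 5 lower, and of the named calls bmal1a (adjusted p from limma 0.0589) and si:ch211-157b11.12 (0.057) were lost.

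Without CT6 of the second cycle, 19 were higher and 29 lower. A false discovery rate of 0.10 then gave 36 and 48, array weights 62 and 61, the variance without trend 1 and 5, and the second cycle only 0 and 0 (limma, 499 at an unadjusted p under 0.05). Fewer were lower with median centring (16) and with time as a factor over the arrays of both groups (17). Adjustment over probe sets with 1 symbol gave 10 lower, but only 14 of the 29 carried a symbol and could be called there. Leaving out a further array gave 4 to 29 higher and 6 to 27 lower. The interaction with the cycle called 0 in limma under the 3 alternatives run, with 682 to 936 probe sets at an unadjusted p under 0.05. Of 144 list medians under alternatives, 2 moved by more than the spread of the list's own level between arrays. These were melatonin synthesis and pineal photoreceptors without CT6 of the second cycle. That spread includes the array itself, so a list on which it stood far apart could shift without being counted. The skin median went from -0.62 to 0.21 without that array and was not counted. All 15 named calls were lost in at least 1 alternative, the second cycle only among them, and 0 turned direction. Array weights over 8 arrays also called hspa4l, rpe65a, ndrg1b, rimkla, cdh2, gadd45ga, arg2, rorcb, fbxl3a and bmal1b. They called csnk1db, gngt2a, bco2a, hspa8b, cul1b, rims2a, hdac9b, rhoub, tob1b and zgc:152863 as well. Time as a factor over all 12 arrays also called ndrg1b, rpe65a, bhlhe40, arg2, hspa8b, fbxl3a, mid1ip1l, rims2a, klf9, rhoub, tob1b and zgc:152863. Time as a factor over the arrays of both groups called bhlhe40 and klf9 too. So did CT22 against CT10 for bhlhe40 and CT18 against CT6 for klf9. The causes were not tested.

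Direction turned for 14 uncalled genes, with these log2 differences. In the first cycle only: clockb -0.25, npas2 -0.15, cry1a 0.19, tph1a -0.57, opn1sw1 -0.065 and aanat2 -0.36. In the second cycle only: clocka 0.29, rorab 0.0098, tefb -1.07 and opn1mw2 0.15. For CT18 against CT6: clockb -0.22, per2 -0.30, cry1a 0.36 and camk1gb -0.60. For CT22 against CT10: rorab 0.19, tefb -0.92, tph1a -0.54, exorh 0.037, opn1mw2 0.23 and aanat2 -1.0. With array weights: clockb -0.046, cry1a 0.10, tph1a -0.32 and aanat2 -0.12. With 1 array left out the values ran over -0.13 to 0.36 for clockb, -0.029 to 0.50 for npas2, -0.25 to 0.23 for cry1a, -0.017 to 0.53 for nr1d2a, -0.22 to 0.13 for rorab, -0.60 to 0.54 for tefb, -0.28 to 0.69 for tph1a and -0.056 to 0.52 for camk1gb. With median centring rorab was at 0.0089, and tefb was at -0.031 with log2 only and -0.074 with an offset of 32. Dim values (bmal1a, rorcb, bmal2) carry no known background, and 2 arrays a time cannot separate CT18 from CT22 effects with much precision.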

Other observations

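The arrays carry a control probe set for enhanced green fluorescent protein, which the transgene expresses in the pineal gland. Its deposited intensity was 36.1, 77.1, 32.4 and 148 in late night (CT18 and CT22 of the first cycle, then of the second), against 83.7, 121, 47.8 and 51.0 in late day (CT6 and CT10 in the same order). The groups overlapped, and aanat2, whose regulatory regions drive the transgene, overlapped between the groups too. Control probe sets were not part of the fit, so no test was made.

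Muscle markers were higher in late night in 16 of 18 tested genes with a median of 0.37, and glial markers in 11 of 14 with a median of 0.30, with no call in either list. Of all probe sets tested, 49.7% were higher in late night, and 48.2% without CT6 of the second cycle. Skin markers were higher in 2 of 32 tested genes (median -0.62), and in 19 of 32 (0.21) without that array. Bone and connective tissue markers were higher in 1 of 21 (-0.57), and in 3 of 21 (-0.25) without it. Immune cell markers were higher in 1 of 15 (-0.34), and in 5 of 15 (-0.125) without it. The part of these tissues in the comparison was not tested. Red blood cell markers had a median of 0.31 over 8 arrays and 0.09 without CT6 of the second cycle. Vessel markers, 7 tested, had a median of -0.23, and the 4 habenula markers one of 0.01.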
